A study of Mus musculus with 12 samples.

Results

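The 10 early mesoderm transcription factor genes Mixl1, Gsc, Evx1, Cdx1, Mesp1, Tbx6, Tcf15, Meox1, Hand2 and Foxf1 were followed across 12 mouse arrays. Each was taken as the probe set whose single annotated symbol is that gene, and all 10 were measured, of 18784 genes in all. The arrays formed 4 groups of 3. Neural progenitor cells (NPC) carried either an shRNA against Jarid1b (knockdown) or a scrambled shRNA (control), and embryonic stem cells (ESC) carried the same constructs. All cells came from E14TG2a.4, a feeder-independent mouse ESC line grown with LIF. The ESC were kept with PLKO.1 lentivirus for 16 h, with puromycin added 48 h after transduction, and the labels give this for all groups, controls included. The NPC were made by a published protocol. The labels name 1 Jarid1b shRNA construct and do not say whether arrays of a group were separate transductions, so the spread between them may be technical. The question set by the design is what loss of Jarid1b, now named Kdm5b, a demethylase of lysine 4 on histone H3, does to expression in each state.

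In the gastrulating embryo, Nodal, Wnt and BMP signals drive epiblast cells through the primitive streak, where they switch on transcription factors in sequence. Homeobox genes such as Mixl1 and Gsc mark the streak and the organizer, Evx1 and Cdx1 the posterior streak, and Mesp1 and Tbx6 the mesoderm that leaves it. Tcf15 and Meox1 then act in the somites, and Hand2 and Foxf1 in lateral plate mesoderm. In cultures of stem cells and of neural progenitors, these genes serve as a readout of cells entering, or straying into, a fate other than the neural one.

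In knockdown NPC, limma called 0 of the 10 genes. In knockdown ESC, Tcf15 fell and Tbx6 rose, and the other 8 genes did not pass the test. Tcf15 was the 1 gene of the 10 whose knockdown effect differed between the states. In NPC relative to ESC, Tcf15 fell while Meox1 and Foxf1 rose, in knockdown and in control cells alike. A gene is said to rise or fall at an adjusted p under 0.05, from limma with Benjamini-Hochberg adjustment over 18784 genes. In NPC the 0 of 10 stand beside 1.03% of all genes. An unadjusted p under 0.05 was found for 3 of the 10 in NPC, beside 1789 of 18784 genes. In ESC it was found for 3 of the 10, beside 3603 of 18784 genes. In ESC, 2 of 10 were called, beside 5.21% of all genes, with 1 rise (1.84% of all genes) and 1 fall (3.37% of all genes). For the difference of the effects, 1 of 10 was called, beside 1.42% of all genes, and it was a positive difference, beside 1.18% of all genes. Counts this small on 10 genes do not set the list apart from other genes. The median log2 difference of the 10 genes was -0.028 in NPC and -0.017 in ESC, against 0.0037 and 0.017 over all genes. In bulk samples such as these, fewer cells of a type and less RNA per cell cannot be told apart.

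Kdm5b, the targeted gene (Entrez gene 75605), had log2 levels of 10.38, 10.48 and 10.54 in knockdown NPC, against 11.24, 11.15 and 11.30 in control NPC. In knockdown ESC its levels were 10.64, 10.90 and 10.50, against 12.25, 12.47 and 12.50 in control ESC. All knockdown arrays lay below the control arrays in both states. The log2 difference was -0.76 ± 0.11 in NPC (SE, adjusted p = 0.00524) and -1.73 ± 0.11 in ESC (SE, adjusted p = 1.82e-05). Kdm5b thus fell less in NPC, and its effects differed by 0.96 ± 0.16 (NPC minus ESC, SE, adjusted p = 0.0172). Dropping control ESC array 3 raised that adjusted p to 0.0591, and dropping knockdown NPC array 2 raised it to 0.0512. Dropping both control arrays numbered 3 raised it to 0.0712. The part of this unequal fall in other differences between the states was not tested. The cell states matched their labels. Of 8 neural progenitor markers, 8 rose in NPC over ESC, and of 8 pluripotency markers 8 fell, in knockdown and in control cells. The pluripotency markers averaged 7.58 to 8.44 on the knockdown NPC arrays and 6.97 to 7.50 on the control NPC arrays, against 12.31 to 12.44 over all ESC arrays. Array lower quartiles lay between 5.84 and 6.11, and arrays of a group correlated at 0.992 to 0.997 across genes.

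**Figure D1:**
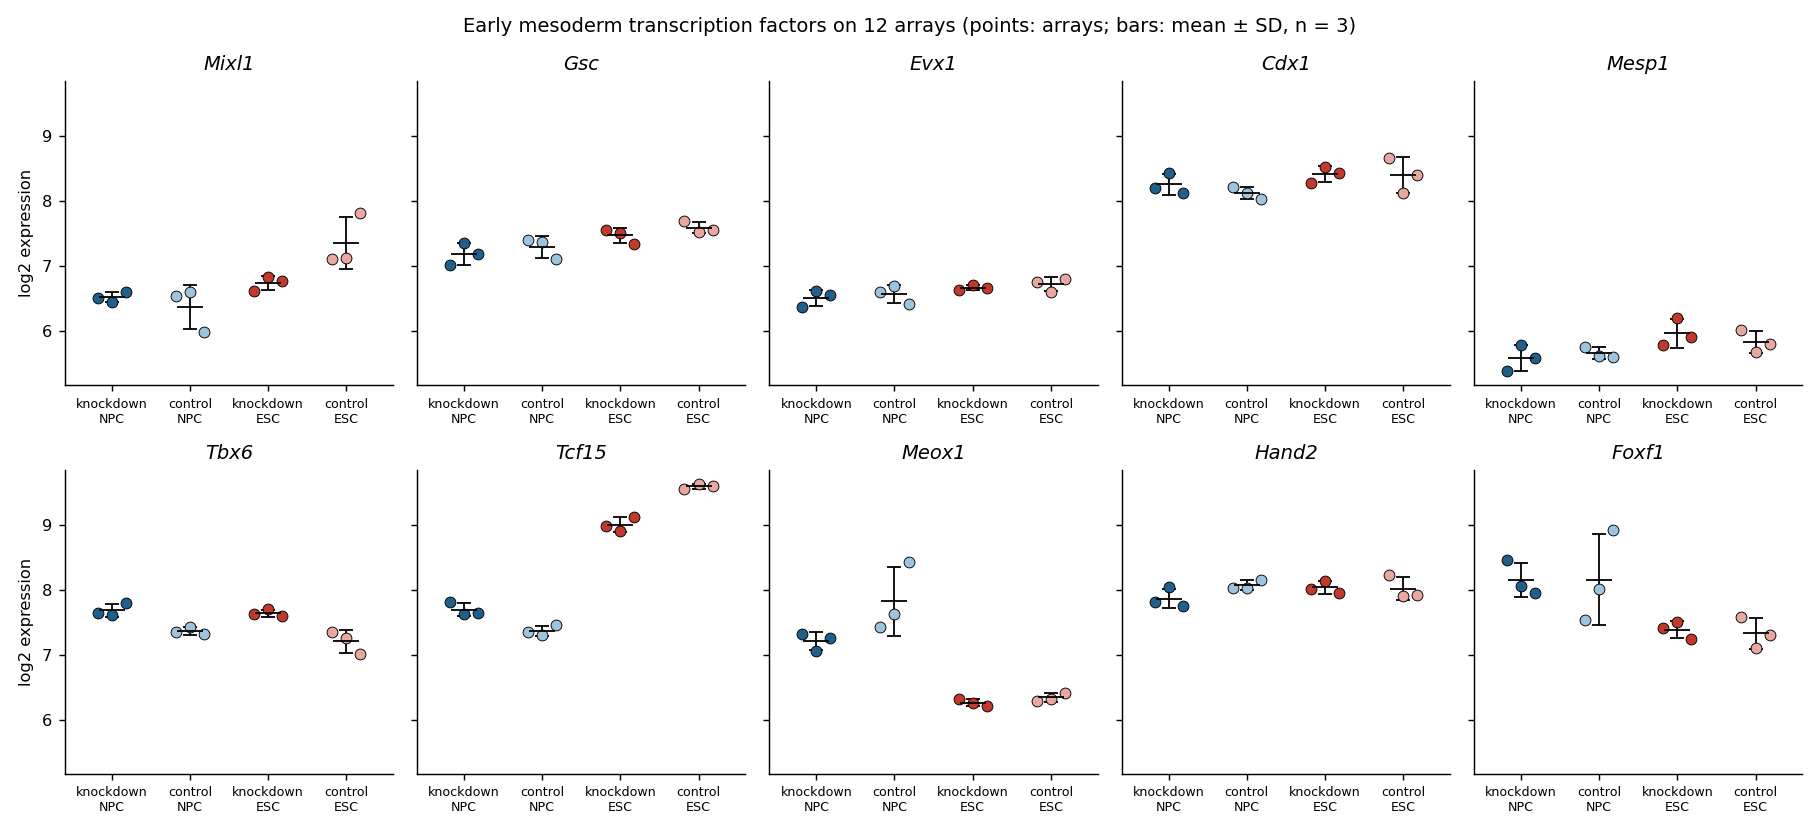
Log2 expression (y axis) of each of the 10 genes on the 12 arrays, by group (x axis). Points are arrays and bars the mean ± SD of 3. Tcf15 lies higher in ESC than in NPC and lower in knockdown than in control ESC, Meox1 lies higher in NPC, and control NPC spread widely for Meox1 and Foxf1.

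Tcf15 (Entrez gene 21407) encodes paraxis, a basic helix-loop-helix factor needed for somites to become epithelial, and is also expressed in ESC. Its log2 levels were 7.81, 7.62 and 7.64 in knockdown NPC, against 7.35, 7.30 and 7.45 in control NPC. In knockdown ESC they were 8.98, 8.91 and 9.12, against 9.55, 9.63 and 9.60 in control ESC. The groups did not overlap in either state, and knockdown stood above control in NPC and below it in ESC. Of the 10 genes, 3 had groups without overlap in NPC (Tcf15, Tbx6 and Meox1), beside 14.2% of all genes, and 3 in ESC (Tcf15, Tbx6 and Mixl1), beside 24.2% of all genes. In NPC the log2 difference was 0.32 ± 0.088 (SE, adjusted p = 0.129), which did not pass the test. In ESC it was -0.59 ± 0.088 (SE, adjusted p = 0.00391), or 1.51-fold lower in knockdown cells.

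The knockdown effects on Tcf15 differed by 0.91 ± 0.12 (NPC minus ESC, SE, adjusted p = 0.00738). Under every alternative run this call was made, with adjusted p from 0.00318 to 0.0394, and so was the call in ESC, with adjusted p from 0.000794 to 0.0385. Tcf15 fell in NPC relative to ESC by 1.31 on the log2 scale in knockdown cells (SE 0.088, adjusted p = 4.74e-08). In control cells it fell by 2.23 (SE 0.088, adjusted p = 3.84e-10). The fall was 2.48-fold in knockdown cells and 4.68-fold in control cells, and the 0.91 above is the test of that gap. The order of the group means was control NPC, knockdown NPC, knockdown ESC and control ESC, from low to high.

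Meox1 (Entrez gene 17285) encodes a homeobox factor of the somites. Log2 levels of Meox1 were 7.32, 7.05 and 7.26 in knockdown NPC, against 7.42, 7.63 and 8.42 in control NPC. Knockdown ESC had 6.32, 6.26 and 6.21, against 6.29, 6.32 and 6.41 in control ESC. NPC lay above ESC throughout, the knockdown NPC lay just below the control NPC without overlap, and the ESC groups overlapped.

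Meox1 rose in NPC over ESC by 0.95 ± 0.19 (SE, adjusted p = 0.000971) in knockdown cells and by 1.48 ± 0.19 (SE, adjusted p = 2.04e-05) in control cells. The knockdown difference was -0.61 ± 0.19 in NPC (SE, adjusted p = 0.205) and -0.079 ± 0.19 in ESC (SE, adjusted p = 0.871). Neither passed, and the difference between the effects, -0.53 ± 0.27 (SE, adjusted p = 0.377), did not pass. The value in NPC turned on single control arrays. It was -0.31 (adjusted p = 0.3) without control NPC replicate 3 and -0.82 (adjusted p = 0.0532) without control NPC replicate 1. The SD of Meox1 was 0.14 in knockdown NPC and 0.53 in control NPC, and 0.057 and 0.063 in knockdown and control ESC. The SE above pools the spread of all 4 groups.

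Foxf1 (Entrez gene 15227) encodes a forkhead factor of lateral plate and gut mesenchyme. On the log2 scale Foxf1 stood at 8.45, 8.06 and 7.95 in knockdown NPC, against 7.53, 8.01 and 8.91 in control NPC. Knockdown ESC had 7.41, 7.50 and 7.25, against 7.58, 7.10 and 7.31 in control ESC. Control NPC spanned the whole range of knockdown NPC and reached down to the level of the control ESC.

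Foxf1 rose in NPC over ESC by 0.77 ± 0.27 (SE, adjusted p = 0.0293) in knockdown cells and by 0.82 ± 0.27 (SE, adjusted p = 0.0203) in control cells. Single arrays ended both calls. In knockdown cells the adjusted p was 0.0611 with knockdown ESC replicate 1 left out, 0.0875 with replicate 3 left out, and 0.116 with knockdown NPC replicate 1 left out. In control cells the value was 0.44 (adjusted p = 0.0731) with control NPC replicate 3 left out. Leaving out control ESC replicate 2 gave an adjusted p of 0.0763, and leaving out replicate 3 gave 0.0503. With the 6 control arrays alone it was 0.0578. The knockdown difference was -0.00067 in NPC, with a 95% interval of -0.58 to 0.58, and 0.055 in ESC, with a 95% interval of -0.52 to 0.63. Foxf1 had the widest such intervals of the 10 genes.

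Hand2 (Entrez gene 15111), which encodes a basic helix-loop-helix factor of the heart and limb, had log2 levels of 7.81, 8.04 and 7.75 in knockdown NPC, against 8.03, 8.02 and 8.16 in control NPC. Knockdown ESC had 8.02, 8.14 and 7.95, against 8.22, 7.90 and 7.92 in control ESC. All 4 groups overlapped with their counterparts. Hand2 passed in none of the 5 comparisons, with a knockdown difference of -0.21 (95% interval -0.44 to 0.029) in NPC and 0.020 (95% interval -0.22 to 0.25) in ESC.

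**Figure D2:**
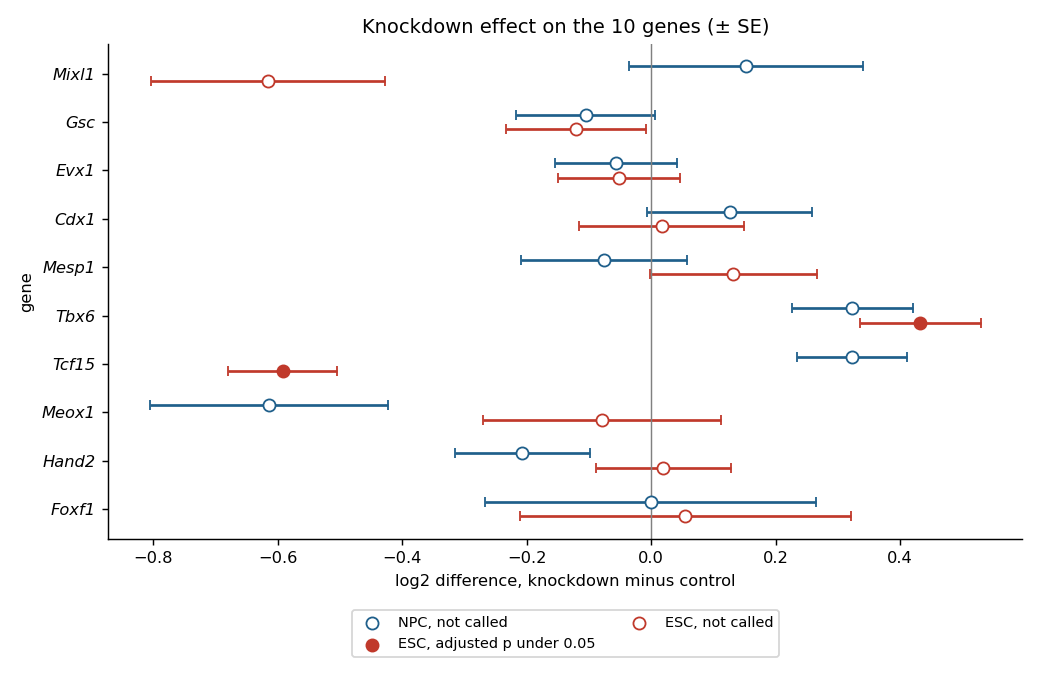
Log2 difference of knockdown minus control (x axis, ± SE) for the 10 genes (y axis) in NPC and ESC, 3 arrays against 3. Filled points passed at an adjusted p under 0.05, namely Tbx6 (0.43) and Tcf15 (-0.59) in ESC, and no NPC point is filled.

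Tbx6 (Entrez gene 21389) encodes a T-box factor that directs paraxial mesoderm and in mouse embryos keeps the posterior precursors of that tissue from becoming neural tube. Its log2 levels were 7.64, 7.62 and 7.80 in knockdown NPC, against 7.34, 7.43 and 7.31 in control NPC. In knockdown ESC they were 7.63, 7.70 and 7.59, against 7.35, 7.25 and 7.02 in control ESC. Knockdown arrays lay above control arrays without overlap in both states.

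In NPC the knockdown difference of Tbx6 was 0.32 ± 0.097 (SE, adjusted p = 0.182) and did not pass. In ESC, Tbx6 was higher in knockdown cells by 0.43 ± 0.097 (SE, adjusted p = 0.0237), or 1.35-fold. The effects were not shown to differ (-0.11 ± 0.14, NPC minus ESC, SE, adjusted p = 0.757). Leaving out control ESC replicate 3 ended the ESC call (0.34, adjusted p = 0.126), as did leaving out any 1 knockdown ESC array (adjusted p from 0.0602 to 0.0844). The call was also lost when the 6 ESC arrays were fitted alone (adjusted p = 0.0679), and with a replicate block on them (adjusted p = 0.0894). Between NPC and ESC, Tbx6 did not pass in knockdown (0.044 ± 0.097) or control cells (0.15 ± 0.097, SE).

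Mesp1 (Entrez gene 17292) encodes a basic helix-loop-helix factor of the earliest heart-forming mesoderm. Its log2 levels were 5.38, 5.79 and 5.58 in knockdown NPC, against 5.76, 5.62 and 5.60 in control NPC. In knockdown ESC they were 5.78, 6.20 and 5.90, against 6.01, 5.67 and 5.80 in control ESC. These values lie about the lower quartiles of the arrays, where a low level cannot be told from no expression. Mesp1 fell in NPC relative to ESC by 0.38 in knockdown cells (SE 0.13, adjusted p = 0.0315), with groups that overlapped. Leaving out single arrays ended this call, with an adjusted p of 0.153 for knockdown ESC replicate 2, 0.0502 for knockdown ESC replicate 3, 0.141 for knockdown NPC replicate 1 and 0.0718 for knockdown NPC replicate 3. In control cells the difference was -0.17 ± 0.13 (SE, adjusted p = 0.336). The knockdown differences, -0.076 in NPC and 0.13 in ESC, did not pass.

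The promoters of Tbx6, called in knockdown ESC, and of Mesp1, called between states in knockdown cells, are shown as those of the early mesoderm factors just described. Both come from the RefSeq promoter table (build GRCm38.p6), which held 5 of the 10 genes. The table also held Gsc, called between states in control cells, with 1 TATA box match, and Evx1 and Hand2, and these are not printed. Each runs 5′ to 3′ from 250 bases before the gene's start to 50 after it, Tbx6 at chr7:126781233-126781532 on the plus strand and Mesp1 at chr7:79793541-79793840 on the minus strand. Capitals mark the TATA box letters TATAAA, the TCF/LEF core (CTTTGA or CTTTGT) and the T-box core AGGTGT, each searched on both strands, so that TCAAAG and ACACCT are matches on the opposite strand. Positions are counted from 1 at the gene's start, with the base before it at -1.
Tbx6: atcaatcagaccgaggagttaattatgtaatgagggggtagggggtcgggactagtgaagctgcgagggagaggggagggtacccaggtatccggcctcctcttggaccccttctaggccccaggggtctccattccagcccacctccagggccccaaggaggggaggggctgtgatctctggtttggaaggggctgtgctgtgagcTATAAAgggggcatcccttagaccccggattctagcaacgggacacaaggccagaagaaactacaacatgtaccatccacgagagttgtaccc
Mesp1: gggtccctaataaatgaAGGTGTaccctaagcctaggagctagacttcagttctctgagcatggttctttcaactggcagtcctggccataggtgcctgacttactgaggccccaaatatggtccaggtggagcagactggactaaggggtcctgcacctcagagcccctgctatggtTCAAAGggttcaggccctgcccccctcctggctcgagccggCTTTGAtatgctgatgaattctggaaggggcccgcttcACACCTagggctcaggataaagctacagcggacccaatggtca
Tbx6 held 1 TATA box match, beginning at position -43, and no match to the other motifs. Mesp1 held 2 TCF/LEF matches, beginning at -72 and -31, and 2 T-box matches, beginning at -233 and 8. No marked matches overlap. Of all 32851 promoters in the table, 13.6% held the TATA letters, 31.2% the TCF/LEF core and 13.7% the T-box core. A match describes the letters only.

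Mixl1 (Entrez gene 27217) encodes a homeobox factor switched on by Nodal signalling in the streak. Its log2 levels were 6.51, 6.44 and 6.61 in knockdown NPC, against 6.53, 6.59 and 5.98 in control NPC. In knockdown ESC they were 6.62, 6.83 and 6.77, against 7.11, 7.13 and 7.82 in control ESC. Every knockdown ESC array lay below every control ESC array, and replicate 3 stood apart in both control groups, high in ESC and low in NPC.

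The knockdown difference of Mixl1 was 0.15 ± 0.19 in NPC (SE, adjusted p = 0.933) and -0.62 ± 0.19 in ESC (SE, adjusted p = 0.0808), and neither passed. The ESC value was -0.38 (adjusted p = 0.322) without control ESC replicate 3. It became a call without control ESC replicate 1 (-0.74, adjusted p = 0.046), without control NPC replicate 3 (adjusted p = 0.0478) and with array weights (-0.80, adjusted p = 0.00862). The difference between the effects was 0.77 ± 0.27 (NPC minus ESC, SE, adjusted p = 0.185), which array weights turned into a call (0.96, adjusted p = 0.0454). Mixl1 fell in NPC relative to ESC by 0.98 in control cells (SE 0.19, adjusted p = 0.000609), while in knockdown cells the difference was -0.22 ± 0.19 (SE, adjusted p = 0.368). Control NPC averaged 6.37, with replicate 3 among the lower quartiles of the arrays, so the size of this fall is limited by the floor.

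Gsc (Entrez gene 14836) encodes goosecoid, a homeobox repressor of the organizer. Its log2 levels were 7.02, 7.35 and 7.19 in knockdown NPC, against 7.41, 7.37 and 7.10 in control NPC. In knockdown ESC they were 7.56, 7.51 and 7.34, against 7.69, 7.53 and 7.55 in control ESC. Knockdown and control overlapped in both states. Between NPC and ESC the difference was -0.28 ± 0.11 in knockdown cells (SE, adjusted p = 0.0508) and -0.30 ± 0.11 in control cells (SE, adjusted p = 0.0408), so that 1 passed and the other just missed. The control call was lost under 10 of 22 alternatives. These were an intensity trend (adjusted p = 0.0595), array weights (0.0816), the 6 control arrays alone (0.0708), leaving out both control arrays numbered 3 (0.211) and 6 single arrays left out. It was lost without any single control ESC array (adjusted p from 0.0528 to 0.126) and without control NPC replicate 3 (adjusted p = 0.178), knockdown ESC replicate 2 (0.0523) or knockdown NPC replicate 3 (0.0548). The knockdown value became a call under 13 of 22 alternatives, among them leaving out control ESC replicate 1 (adjusted p = 0.0487), knockdown ESC replicate 3 (0.0381), control NPC replicate 3 (0.0349) or knockdown NPC replicate 2 (0.0259).

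Evx1 and Cdx1, homeobox genes of the posterior streak and of the axial pattern of the trunk, passed in none of the 5 comparisons. Evx1 (Entrez gene 14028) lay between 6.38 and 6.61 in knockdown NPC, 6.41 and 6.69 in control NPC, 6.63 and 6.71 in knockdown ESC, and 6.60 and 6.80 in control ESC. Cdx1 (Entrez gene 12590) lay between 8.13 and 8.43 in knockdown NPC, 8.04 and 8.22 in control NPC, 8.28 and 8.53 in knockdown ESC, and 8.12 and 8.67 in control ESC. Their group means spanned 0.20 for Evx1 and 0.28 for Cdx1 on the log2 scale. The 95% intervals of the knockdown difference for Evx1 were -0.27 to 0.16 in NPC and -0.26 to 0.16 in ESC. For Cdx1 they were -0.16 to 0.41 in NPC and -0.27 to 0.30 in ESC. Without control ESC replicate 2, Cdx1 was called between the states in control cells (-0.41, adjusted p = 0.0182), against -0.27 (adjusted p = 0.119) with all arrays.

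**Figure D3:**
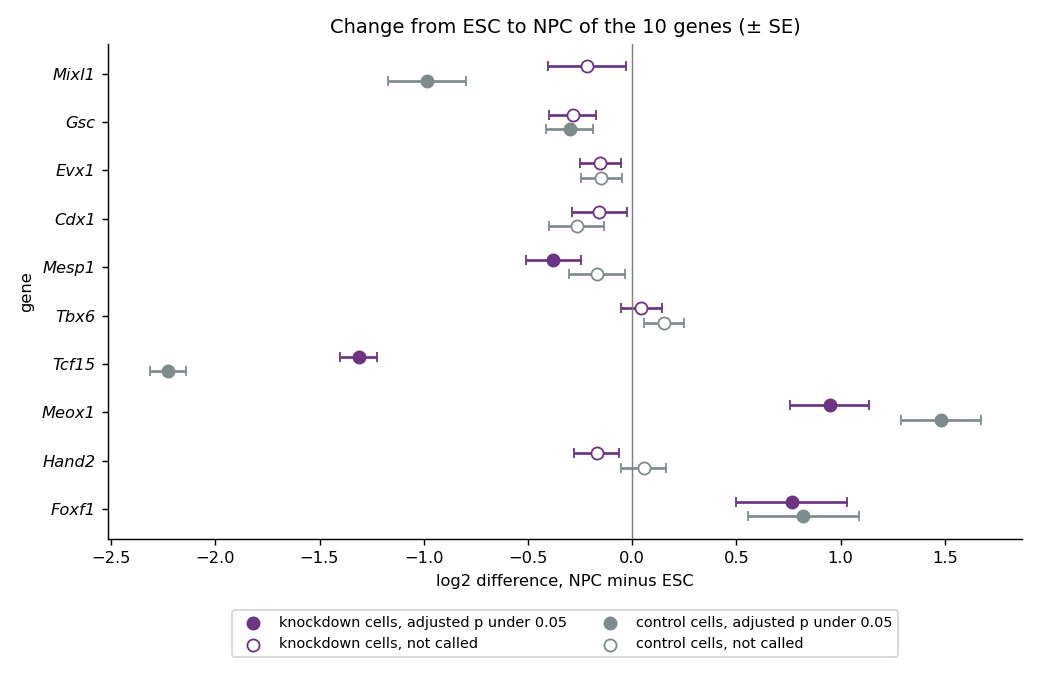
Log2 difference of NPC minus ESC (x axis, ± SE) for the 10 genes (y axis) in knockdown and in control cells, 3 arrays against 3. Filled points passed at an adjusted p under 0.05. Tcf15 lies at -1.31 in knockdown and -2.23 in control cells, and Meox1 at 0.95 and 1.48.

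In NPC relative to ESC, 2 of the 10 genes rose and 2 fell in knockdown cells, and 2 rose and 3 fell in control cells. These counts stand beside 48.8% of all genes called in knockdown cells (23.8% higher and 25.0% lower) and 48.6% in control cells (23.5% higher and 25.1% lower). Groups without overlap numbered 5 of 10 in knockdown cells, beside 62.4% of all genes, and 4 of 10 in control cells, beside 52.3%. The shares of the 10 genes were thus near or below the background. Their median difference was -0.16 in knockdown cells and -0.16 in control cells, against -0.068 and -0.042 over all genes. These comparisons share their arrays with the knockdown comparisons.

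Of the other mesoderm genes, 54 of 56 listed were measured. In knockdown NPC 2 rose and 0 fell of 54, and in knockdown ESC 0 rose and 4 fell of 54. All genes gave 0.82% higher and 0.213% lower in NPC, and the ESC shares given above. The median log2 difference of the 54 was -0.042 in NPC and -0.017 in ESC. Between the states, 19 of the 54 rose and 10 fell in knockdown cells, and 23 rose and 16 fell in control cells. Of all genes, 23.8% rose and 25.0% fell in knockdown cells, and 23.5% rose and 25.1% fell in control cells. The lists hold genes that are not particular to mesoderm. The largest fall was that of Tdgf1 (-6.91 in control cells), also a pluripotency marker, and Kdr is also an endothelial marker. The largest rise in control cells was 4.34, that of Pax3, from a mean of 6.20 in ESC to 10.54 in NPC. Cyp26a1 rose from 6.22 to 10.36 and Lhx1 from 6.06 to 9.93 in the same cells. Such counts therefore do not measure mesoderm cells, and which cells the rises came from was not tested.

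Nodal, the signal that induces Mixl1 and Gsc, had log2 levels of 7.91, 7.74 and 7.37 in knockdown NPC, against 7.01, 7.05 and 6.74 in control NPC. In knockdown ESC it had 10.53, 10.58 and 10.65, against 11.18, 11.32 and 11.63 in control ESC. As with Tcf15, knockdown stood above control in NPC and below it in ESC, without overlap. The differences were 0.74 ± 0.15 in NPC (SE, adjusted p = 0.0341) and -0.79 ± 0.15 in ESC (SE, adjusted p = 0.011). The effects differed by 1.53 ± 0.21 (NPC minus ESC, SE, adjusted p = 0.00738). With control ESC replicate 3 left out, the ESC call ended (-0.66, adjusted p = 0.0634). The NPC call ended with each of 9 arrays left out in turn, with adjusted p from 0.0509 (control NPC replicate 1) to 0.161 (knockdown NPC replicate 1), and with the 6 NPC arrays alone (0.12). It also ended with a replicate block (0.0613), with that block on the 6 arrays (0.0585) and with array weights (0.0661).

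In the primitive streak list, 2 rose and 0 fell of 11 in NPC, and 0 rose and 1 fell of 11 in ESC. Tdgf1, a co-receptor of Nodal and also a pluripotency marker, rose by 1.02 ± 0.19 in NPC (SE, adjusted p = 0.0214), a call lost without control NPC replicate 2 (0.0769) or 3 (0.0575), or knockdown NPC replicate 1 (0.0597) or 2 (0.0949). The Tdgf1 call was also lost with array weights (0.0844), with the 6 NPC arrays alone (0.152) and with a replicate block on those arrays (0.118). The T-box gene Eomes (-0.72 ± 0.21, adjusted p = 0.0631), the ligand gene Wnt3 (-0.71 ± 0.20, adjusted p = 0.0548) and the Wnt target Sp5 (-0.75 ± 0.21, SE, adjusted p = 0.0604) did not pass in ESC. Control ESC replicate 3 held the highest value of its group in 7 of these 11 genes (63.6%) and in 3 of the 10 mesoderm factors, against 28.3% of all genes.

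In the presomitic and somite list, 0 rose and 0 fell of 18 in NPC, and 0 rose and 1 fell of 18 in ESC. The 1 was the Notch ligand gene Dll1 (-0.75 ± 0.19, SE, adjusted p = 0.0369). Lfng, which modifies Notch receptors, and the ligand gene Dll3 did not pass (-0.56 ± 0.15, adjusted p = 0.0578, and -0.47 ± 0.13, SE, adjusted p = 0.061). The cardiac T-box gene Tbx20 was the 1 gene called of 16 in the lateral and cardiac list in ESC (-0.70 ± 0.13, SE, adjusted p = 0.00958). Cdx2, a relative of Cdx1, was the 1 gene called of 9 in the caudal and axial list in ESC (-0.69 ± 0.16, SE, adjusted p = 0.0247).

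Without control ESC replicate 3, these ESC calls of other mesoderm genes ended, and 0 of 54 were called. The adjusted p was then 0.0591 for Tbx20, 0.128 for Cdx2 and 0.178 for Dll1. Dll1 also lost its call without control ESC replicate 2 (0.12), knockdown ESC replicate 1 (0.104), 2 (0.0906) or 3 (0.108) or knockdown NPC replicate 3 (0.0501), and Cdx2 without knockdown ESC replicate 1 (0.0762) or 3 (0.107). With the 6 ESC arrays alone, both calls ended (0.051 for Dll1 and 0.0771 for Cdx2), and with a replicate block on those arrays Cdx2 had 0.102. The lateral and cardiac list had 0 calls of 16 in NPC and a median of -0.33 there, and 0.052 in ESC.

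**Figure D4:**
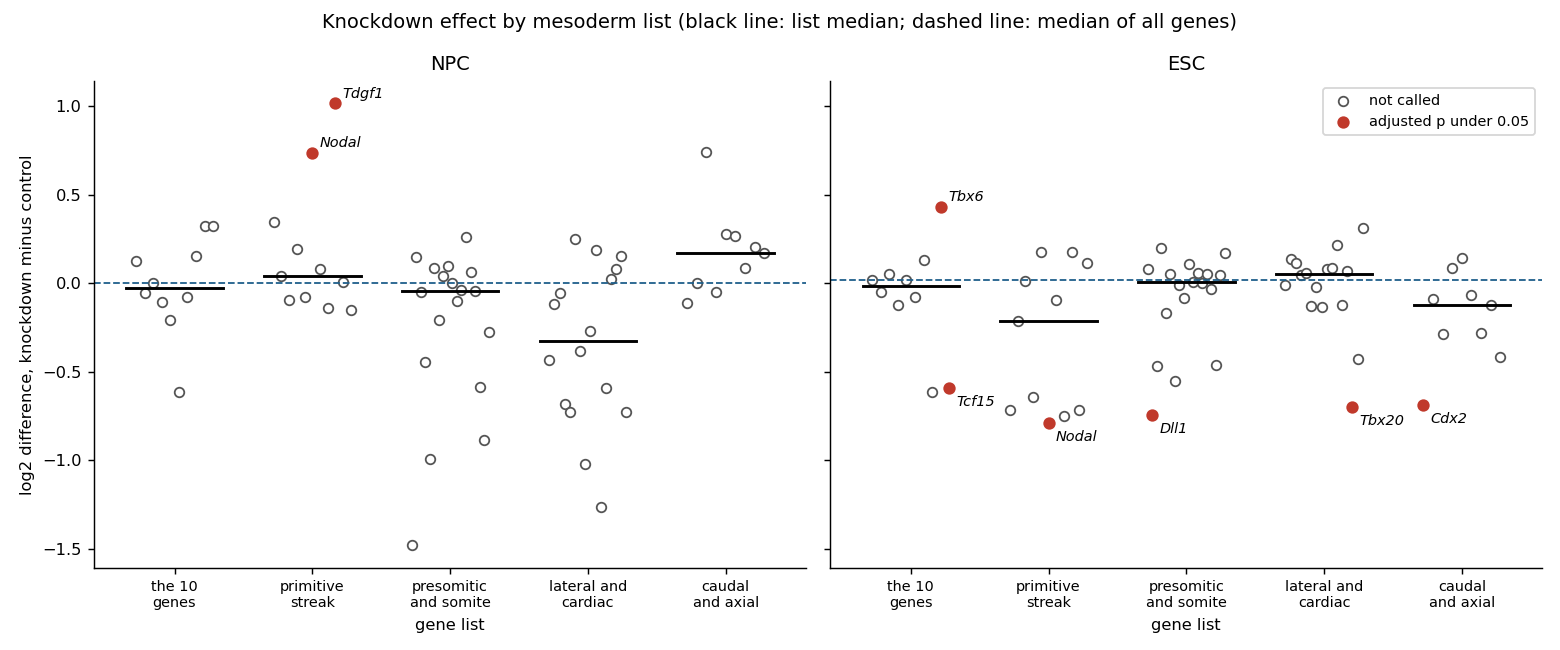
Log2 difference of knockdown minus control (y axis) in NPC and ESC for the 10 genes and 4 lists of other mesoderm genes (x axis), 1 point a gene. Filled points passed at an adjusted p under 0.05, black lines are list medians and the dashed line is the median of all genes. The lateral and cardiac median lies at -0.33 in NPC.

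Large differences of the lateral and somite lists in NPC did not pass. Among them were those of the retinoic acid enzyme gene Aldh1a2 (-1.48 ± 0.41, adjusted p = 0.136), the factor gene Osr1 (-1.27 ± 0.29, adjusted p = 0.0629), the receptor gene Kdr (-1.02 ± 0.23, adjusted p = 0.0563), which is also on the endothelial list, and the T-box gene Tbx18 (-0.89 ± 0.19, SE, adjusted p = 0.0521). Osr1 had log2 levels of 7.68, 7.71 and 7.45 in knockdown NPC, against 7.91, 9.51 and 9.21 in control NPC. Control replicate 1 was near the knockdown arrays and the other control arrays stood well above. Without control NPC replicate 1, 8 of 54 genes were called in NPC instead of 2, Osr1 (adjusted p = 3.43e-05), Tbx18 (0.000326), Aldh1a2 (0.000376) and Kdr (0.00188) among them, and 0 were called without control NPC replicate 2, control NPC replicate 3, knockdown NPC replicate 1 or knockdown NPC replicate 2.

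In all 7 endothelial markers, Kdr among them, the knockdown difference in NPC was also below 0. In knockdown NPC 0 rose and 4 fell of 7, beside 0.82% higher and 0.213% lower of all genes. The mean log2 level of the 7 markers was 6.28 to 6.70 on the knockdown NPC arrays and 7.17 to 8.11 on the control NPC arrays, without overlap. Control NPC replicate 1 was the lowest of its group in 7 of 7 endothelial markers, against 25.4% of all genes. Control NPC replicate 3, which held the highest Meox1 and Foxf1, was the highest in 5 of 7, against 31.9% of all genes. In ESC the same list averaged 7.31 to 7.36 on knockdown and 7.12 to 7.29 on control arrays, with 1 rising and 0 falling of 7. Pecam1 averaged 10.3 in knockdown and 9.43 in control ESC. In NPC relative to ESC, 5 of the 7 rose and 2 fell in control cells, and 1 rose and 2 fell in knockdown cells. Pecam1 (6.32 in knockdown NPC) and Tek (9.09 in knockdown ESC, 6.12 in knockdown NPC) were lower in NPC. The list mean thus mixes opposite changes between the states. Fibroblast and muscle markers averaged 7.65 to 7.89 on knockdown NPC arrays and 8.06 to 8.46 on control NPC arrays, with 0 of 7 called. In ESC 0 rose and 1 fell of these 7. Endoderm markers had 0 of 7 called in NPC, and 1 rose and 1 fell in ESC. Neural crest markers averaged 7.86 to 8.11 on knockdown NPC arrays and 8.15 to 8.36 on control NPC arrays, without overlap, with 0 of 6 called and 3 of 6 at an unadjusted p under 0.05. In ESC they averaged 7.59 to 7.71 on knockdown and 7.95 to 8.08 on control arrays, also without overlap, with 0 rising and 1 falling of 6. The part of these cell types in the Meox1, Foxf1, somite and lateral mesoderm values, and in the ESC values, was not tested.

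Of the 8 pluripotency markers, 3 rose and 0 fell in knockdown NPC, and their mean log2 levels, given above, did not overlap between the NPC groups. Their part in the higher Tcf15 and Nodal levels of knockdown NPC was not tested. In ESC 0 rose and 0 fell of these 8 markers, 0 had an unadjusted p under 0.05, and their mean was 12.39 to 12.44 on knockdown and 12.31 to 12.35 on control arrays. These ESC means did not overlap. Singly, 7 of the 8 markers had ESC groups without overlap, beside 24.2% of all genes. Their differences were above 0 for 6 of the 8 and below 0 for 2. Of the neuronal markers 0 rose and 3 fell of 6 in knockdown ESC. Their mean log2 level was 8.58 to 8.82 on knockdown ESC arrays and 8.95 to 9.06 on control ESC arrays.

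For the genes whose group means spanned at least 1 on the log2 scale, Tcf15 and Meox1, the 3 genes with the most similar profile were found by Pearson correlation over the 12 arrays. For Tcf15 they were Thada (r = 0.994), Arhgef16 (r = 0.994) and Dnaja3 (r = 0.993). Thada averaged 9.37 in knockdown and 9.11 in control NPC, and 10.23 in knockdown and 10.55 in control ESC, the same order of groups as Tcf15. For Meox1 they were Gata6, a factor of heart and endoderm (r = 0.990), Naaladl2 (r = 0.984) and Foxc2, a forkhead factor of somites and vessels (r = 0.984). Foxc2 averaged 7.68 in knockdown and 8.67 in control NPC, and 5.60 in knockdown and 5.77 in control ESC. These correlations describe profiles over the same arrays, in which the gap between NPC and ESC takes a large part.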

How the data were processed

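RNA was measured on Affymetrix mouse gene arrays, 3 in each of 4 groups named in the sample titles. The deposited values are log2 expression for each probe set. Affy, RMA and limma, without versions, are named in the submitters' processing notes. RMA normalizes between arrays and compresses low differences. No detection calls were used, and precision is limited by the number of arrays.

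Of 21212 probe sets, 18786 carried 1 symbol, 6 several and 2420 none here. The highest-mean probe set per gene left 18784 genes. With limma 3.58.1 in R 4.3.3, 1 mean per group was fitted over all arrays (8 residual degrees of freedom), two-sided, with Benjamini-Hochberg adjustment over the named genes. Of these steps, the limma fit was tested on simulated data, for the knockdown comparison in ESC only. The members and lists were chosen with earlier results of these data known. Named were all members, Kdm5b, up to 4 genes of each mesoderm list with the smallest p in a knockdown comparison or in the difference of the effects, and the 3 genes most like a member whose group means span at least 1.

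Alternatives tried were leaving out each array, fitting only the 6 arrays of a contrast, blocking on replicate number, dropping genes with a mean under 6 (14275 kept), array weights, an intensity trend with robust prior, quantile normalization, median centring and averaging probe sets. Blocking within those 6 arrays, and leaving out both control arrays numbered 3, were chosen after seeing the data. Same-numbered control NPC and control ESC arrays deviated together (r = 0.266, 0.286 and 0.334 across genes), so the numbers may pair that contrast, read from the data alone. The reported values come from the fit without the block, and the block is an alternative. The other contrasts each had a pair at or under 0.1.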

Additional observations from a re-analysis of the deposited data

Results flagged for a closer look

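The knockdown effect on Tcf15 differed between the states by an interaction test, by 0.91 on the log2 scale (NPC minus ESC, adjusted p = 0.00738), with knockdown above control in 3 of 3 NPC arrays and below control in 3 of 3 ESC arrays. Groups without overlap were found for 14.2% of all genes in NPC and 24.2% in ESC. The Tcf15 difference in NPC did not pass on its own. Nodal differed by the same test, with a difference of 1.53 (adjusted p = 0.00738) and the same directions in 3 of 3 arrays of each state. The Nodal call in NPC was lost in many alternatives, the 6 NPC arrays alone (adjusted p = 0.12) among them. Its ESC call was lost without control ESC replicate 3 (0.0634). Kdm5b itself fell less in NPC than in ESC by the same test (adjusted p = 0.0172), though it did not pass under every alternative. The part of this unequal fall in the Tcf15 and Nodal results was not tested. These tests share the control and knockdown arrays.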

How the results depend on the processing

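The counts of called genes depended on the arrays and settings, and the calls of Tcf15 in knockdown ESC, in the difference of the effects and between the states were made under every alternative run. For the 10 mesoderm factors, 2 were called in knockdown ESC, 1 with the 6 arrays alone, 1 with those arrays and a replicate block, 1 without both control arrays numbered 3, and 1 to 3 with single arrays left out. The difference of the effects gave 2 with array weights instead of 1. Between states, control cells gave 5, but 3 with the 6 arrays alone, 3 without both control arrays numbered 3 and 3 to 5 with single arrays left out; knockdown cells gave 4, and 2 to 5 with single arrays left out. In knockdown NPC the count was 0 under all 22 alternatives.

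For the other mesoderm genes, knockdown ESC gave 4, but 11 with array weights, 7 with quantile normalization, 2 with the 6 arrays alone, 0 without both control arrays numbered 3 and 0 to 7 with single arrays left out. Knockdown NPC gave 2, but 1 with a replicate block (Nodal lost its call, adjusted p = 0.0613), 4 with an intensity trend, 4 with median centring, 0 with array weights, 0 with the 6 arrays alone (with or without the block), 0 without both control arrays numbered 3 and 0 to 8 with single arrays left out. The difference of the effects gave 1, but 2 with the filter, 2 with quantile normalization, 2 with the mean of probe sets, 5 with array weights and 1 to 5 with single arrays left out.

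Over all genes, knockdown ESC gave 979, but 2887 with array weights, 500 with the 6 arrays alone, 396 with those and a replicate block, 186 without both control arrays numbered 3 and 193 to 1536 with single arrays left out. Knockdown NPC gave 194, but 29 with the 6 arrays alone, 57 with those and a block, 112 without both control arrays numbered 3 and 83 to 247 with single arrays left out. The difference of the effects gave 267, but 152 with a replicate block, 955 with array weights, 50 without both control arrays numbered 3 and 35 to 546 with single arrays left out. The causes were not tested, nor was the part of the fewer degrees of freedom in fits with fewer arrays. In control cells, NPC minus ESC, where same-numbered arrays deviated together, the replicate block left the called members as they were. With 3 arrays a group and no detection calls, levels near the floor, as for Mesp1, limit what can be read. Tbx18 in knockdown NPC (mean 5.45) also lay there, below the array lower quartiles. Meox1 in knockdown and control ESC (means 6.26 and 6.34) and Tbx20 in knockdown ESC (mean 6.31) lay just above those quartiles. So did Tdgf1 and Mixl1 in control NPC (means 6.11 and 6.37).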
